A study of Mus musculus with 11 samples.

Results

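The Wnt ligands, their receptors and their secreted antagonists were followed in whole aortic valves of mice 48 hours after a wire had been used to injure the valve endothelium. The set comprised 42 of the 46983 genes counted. Its members were the protein-coding genes whose symbol was Wnt, Fzd, Sfrp or Dkk followed by a digit, together with Frzb, Wif1, Lrp5, Lrp6 and Axin2. It held 19 Wnt ligands, 10 Frizzled receptors, 2 LRP coreceptors, 10 secreted antagonists and Axin2. All mice were labelled wild type, and each library came from the valve of 1 mouse. The 4 groups were young injured valves and young sham valves, from mice 3 to 4 months old (n = 3 each), and aging injured (n = 2) and aging sham valves (n = 3), from mice 16 to 18 months old. Sham mice underwent a control surgery. The comparisons asked which genes differed after injury at either age, with age, and whether the response to injury differed between ages.

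Wnt ligands are secreted lipid-modified proteins that bind Frizzled receptors, with Lrp5 or Lrp6 as the coreceptor of the branch that acts through beta-catenin. Receptor engagement stops the destruction complex from degrading beta-catenin, which then works with TCF and LEF factors in the nucleus to switch on target genes, among them Axin2, a scaffold of that same complex and a widely used readout of the branch. Secreted Frizzled-related proteins and Wif1 bind the ligands, and Dkk1 blocks the LRP coreceptors. The pathway takes part in forming the endocardial cushions, from which heart valves develop, and Lrp5 has been studied in calcified human valves.

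Promoter sequences are shown for Axin2, the feedback target among the members, for Nkd2, the only listed gene of the pathway that passed the test, and for Wnt11, a ligand discussed among the injury results. They were taken from the RefSeq promoter table (build GRCm38.p6, the assembly that mm10 names), which covers 250 bases before to 50 after each start, and they read 5′ to 3′ on the strand of the gene. Capitals mark a match to the core letters CTTTGA of a TCF/LEF site or to their reverse complement TCAAAG.
Axin2, chr11:108920099-108920398, plus strand: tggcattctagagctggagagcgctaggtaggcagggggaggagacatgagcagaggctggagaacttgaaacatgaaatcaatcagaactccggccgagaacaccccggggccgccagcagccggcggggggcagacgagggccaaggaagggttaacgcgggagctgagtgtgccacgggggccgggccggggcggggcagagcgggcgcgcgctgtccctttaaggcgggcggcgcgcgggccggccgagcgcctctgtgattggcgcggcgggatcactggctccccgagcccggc
Nkd2, chr13:73847582-73847881, minus strand: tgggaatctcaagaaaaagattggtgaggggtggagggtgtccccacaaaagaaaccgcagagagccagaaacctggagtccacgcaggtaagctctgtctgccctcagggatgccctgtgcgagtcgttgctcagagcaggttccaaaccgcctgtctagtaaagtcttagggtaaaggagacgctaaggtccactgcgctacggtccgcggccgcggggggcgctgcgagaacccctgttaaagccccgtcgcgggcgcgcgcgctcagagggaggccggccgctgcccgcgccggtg
Wnt11, chr7:98834862-98835161, plus strand: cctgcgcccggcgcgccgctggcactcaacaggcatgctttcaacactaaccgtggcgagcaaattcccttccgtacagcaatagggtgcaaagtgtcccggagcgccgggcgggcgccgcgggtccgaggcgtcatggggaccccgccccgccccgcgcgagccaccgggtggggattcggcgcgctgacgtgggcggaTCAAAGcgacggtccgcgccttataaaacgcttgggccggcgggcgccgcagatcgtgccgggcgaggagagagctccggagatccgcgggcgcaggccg
The Wnt11 window held 1 match, which began at position -50 relative to the start, and the windows of Axin2 and Nkd2 held none. A second Wnt11 start in the table also had none. The letters occurred on either strand in 16% of all 32851 promoters of the table (5257). Of the members, 28 matched the table with 31 promoters, and 5 of these genes held the letters, namely Dkk1, Frzb, Fzd1, Wnt11 and Wnt5b. A match is a description of these letters only.

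Total counts ranged from 27124000 to 36353474 per library. Genes with any count numbered 18642 and 19015 in the aging injured libraries and 18641 in young sham 1, compared with 20411 to 22533 in the remaining 8. Defining markers of valve interstitial cells, endothelium, cardiac muscle, smooth muscle, macrophages, melanocytes, Schwann cells, mesothelium, adipocytes and chondrocyte-like cells had counts in every library. Summed over 12 markers, cardiac muscle transcripts ran from 8652 to 37288 CPM in young injured, from 20109.6 to 36030.2 CPM in young sham, from 11959 to 13908 CPM in aging injured and from 7493 to 21553 CPM in aging sham libraries. In such whole-tissue libraries, fewer cells of a type and less RNA per cell cannot be told apart.

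The highest levels per length were those of antagonists, and no ligand reached the level of the most abundant receptors. Levels between genes are compared on the authors' RPKM scale, which 31 of the 42 members had. Dkk3, a Dkk family glycoprotein that is not a high-affinity LRP ligand as Dkk1 is, had the highest mean level over the 11 libraries, at 419 RPKM. Wif1 followed with 114 RPKM, then Sfrp2 with 78.3 RPKM and Frzb, also known as Sfrp3, with 70.3 RPKM. Among the receptors Fzd1 was highest with a mean level of 66.2 RPKM. Fzd7 and Fzd2 had mean levels of 25.99 and 23.9 RPKM, and the coreceptors Lrp5 and Lrp6 20.7 and 9.21 RPKM. The ligand with the highest mean level was Wnt5a, best known for signalling without beta-catenin, at 10.6 RPKM. Wnt16, which in mice maintains cortical bone, had 8.28 RPKM, and Wnt9a 6.51 RPKM. Axin2 had a mean level of 5.62 RPKM.

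**Figure D1:**
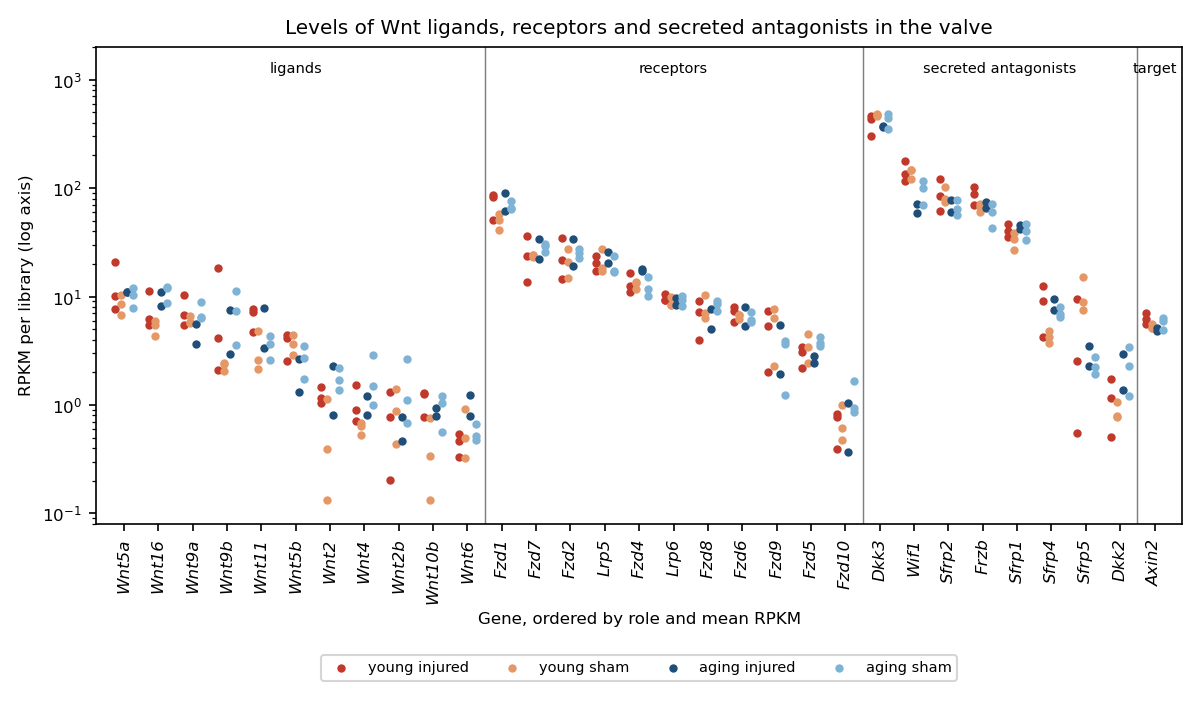
Authors' RPKM (log axis) of the 31 members that have it, 1 point per library, coloured by group and ordered by role and mean level. Dkk3 averages 419 RPKM, while the highest ligand, Wnt5a, averages 10.6 RPKM, and the libraries of Wnt2 and Wnt10b at the bottom of the plot stand at the repeated value of 0.133 RPKM.

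At the low end, 7 members had too few counts to be tested. Wnt3a, Wnt8a and Dkk4 had 0 counts in all 11 libraries, Wnt8b had 4, Wnt3 had 8, Dkk1 had 32 and Wnt7b had 37. The remaining 35 members passed the filter on low counts, namely 14 ligands, all 12 receptors, 8 antagonists and Axin2. Of these, Fzd3, Wnt1, Wnt7a and Wnt10a had no RPKM value. The value of 0.133 RPKM recurs 1498 times over the 11 libraries of the file and was not read as a measurement, although lower values occur in 7 libraries, and 2 member values lay at it, those of Wnt2 and Wnt10b in young sham 1, which had 1 and 0 counts. Wnt5b overlaps Fbxl14 on the opposite strand, which had 13755 counts against 2666 of Wnt5b, and since the use of strand in counting is not given, the values of Wnt5b are uncertain.

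Within a gene, values are given as library-scaled counts (CPM, with TMM factors), and a gene was called when its adjusted p from edgeR's quasi-likelihood test was under 0.1 and its fold change over 2. No member was called after injury in young valves, where 0.418% of the 19366 genes tested were called (0.403% as higher and 0.0155% as lower). At an unadjusted p under 0.05 the count was 5 of 35 members, all with higher values in injured valves, beside 9.19% of all genes tested (6.25% higher and 2.94% lower). DESeq2, which called 1.38% of all genes tested (1.15% as higher and 0.238% as lower), and limma-voom also called 0 members. The 5 were Wnt11, Wnt9b, Wnt7a, Fzd1 and Sfrp4, and all but Fzd1 and Wnt7a are described because of these values and not by the rule for named genes.

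Among the ligands, Wnt11 (ENSMUSG00000015957, chromosome 7, 98835112 to 98855195), which in mice acts in outflow tract development, had 24.1, 23.0 and 15.5 CPM in young injured valves, against 7.34, 8.44 and 15.8 CPM in young sham valves. The group means were 20.8 ± 4.68 CPM in injured and 10.5 ± 4.61 CPM in sham valves (SD, n = 3 each), and the groups overlapped through young sham 3. Its log2 fold change was 0.99 ± 0.37 (SE, adjusted p = 0.423). Wnt9b (ENSMUSG00000018486, chromosome 11, 103727364 to 103749821), a ligand of the endocardium in embryonic mouse valves, had 8.21, 73.0 and 17.2 CPM in young injured valves, against 10.3, 8.31 and 9.74 CPM in young sham valves. The level of 73.0 CPM in young injured 2 was the high value, while young injured 1 lay below every sham library. Its log2 fold change was 1.80 ± 0.69 (SE, adjusted p = 0.437), and 0.42 without young injured 2. Wnt5a (ENSMUSG00000021994, chromosome 14, 28504750 to 28527447) had 141, 70.3 and 54.8 CPM in young injured valves, against 75.9, 59.8 and 47.9 CPM in young sham valves. Young injured 1 was the high library and the groups overlapped, with a log2 fold change of 0.53 ± 0.31 (SE, adjusted p = 0.661). Wnt16 had 42.8, 24.0 and 21.9 CPM in young injured valves, against 17.5, 23.6 and 21.6 CPM in young sham valves, again with young injured 1 alone well above the sham libraries, and a log2 fold change of 0.50 ± 0.25 (SE, adjusted p = 0.597). Wnt9a had 30.1, 16.0 and 20.6 CPM in young injured valves, against 17.6, 19.7 and 17.6 CPM in young sham valves, which overlapped, and a log2 fold change of 0.28 ± 0.25 (SE, adjusted p = 0.806). Young injured 1, the highest young library for Wnt5a, Wnt16 and Wnt9a, also had the lowest summed level of endothelial markers. That level was 386 CPM, against 686 to 1120 CPM in the other libraries, and its part in these values was not tested.

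In 2 ligands, Wnt4 and Wnt10b, every young injured library lay above every young sham library. Wnt4 (ENSMUSG00000036856, chromosome 4, 137277489 to 137299726), which in mice is needed for kidney and female reproductive tract development, had 3.30, 5.60 and 2.74 CPM in young injured valves, against 2.70, 1.99 and 2.44 CPM in young sham valves. The lowest injured and the highest sham value almost met, and the log2 fold change was 0.70 ± 0.42 (SE, adjusted p = 0.678). Wnt10b, chosen for this separation, had 2.59, 2.59 and 1.63 CPM in young injured valves, against 0, 0.706 and 1.62 CPM in young sham valves, with the injured and sham libraries nearest each other at 1.63 and 1.62 CPM and a log2 fold change of 1.57 ± 0.97 (SE, adjusted p = 0.686). Young sham 1, where Wnt10b had 0 counts, was among the libraries with counts for the fewest genes. Non-overlap upward was thus found in 2 of 35 members (5.71%), beside 9.54% of all genes tested. Over the 14 ligands tested, 10 had a log2 fold change above 0 and the median was 0.62, against a median of 0.01 and a share above 0 of 51.5% over all genes tested. Among the 9 ligands that averaged 2 CPM or more, 7 were above 0 and the median was 0.53. Interstitial and fibroblast markers differed in the same libraries, with 2 of 12 called as higher and 9 above 0, and their summed level was 24637 to 29898 CPM in young injured and 18304 to 21805 CPM in young sham libraries. Schwann cell markers had summed levels of 322 to 339 CPM in young injured and 351 to 441 CPM in young sham libraries, with 7 of 7 below 0. Chondrocyte-like markers, 4 of 6 tested above 0, summed to 783 to 2016 CPM in young injured and 2444 to 2628 CPM in young sham libraries. Mesothelial markers, 8 of 8 above 0 with a median of 0.86 and 2 at an unadjusted p under 0.05, summed to 36.3 to 137 CPM in young injured and 20.3 to 71.4 CPM in young sham libraries. Macrophage markers, 10 of 10 above 0 with a median of 0.42 and 3 at an unadjusted p under 0.05, summed to 681 to 1158 CPM in young injured and 626 to 839.8 CPM in young sham libraries. Cardiac muscle markers were below 0 in 11 of 12, with a median of -0.72. With the cardiac muscle score as a covariate in edgeR, 3 of 35 members had an unadjusted p under 0.05 for injury in young valves, against 5 without it. The smallest adjusted p of any member was 0.227, that of Wnt2b, and no member was called. The score may itself differ with injury, so no conclusion is drawn from that fit. The part of the other markers in the ligand values was not tested.

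The median log2 fold change of the 12 receptors was -0.01, and 6 were above 0. Fzd1, the most abundant Frizzled, had 302, 319.9 and 194 CPM in young injured valves, against 227, 193 and 157 CPM in young sham valves. The groups overlapped, since young injured 3 lay below the highest sham library, and the log2 fold change was 0.50 ± 0.22 (SE, adjusted p = 0.537). Fzd7 had 142, 94.1 and 56.5 CPM in young injured valves, against 103, 98.0 and 95.9 CPM in young sham valves, and Fzd2 had 111, 69.7 and 48.9 CPM in young injured valves, against 94.1, 68.2 and 49.99 CPM in young sham valves. In both genes young injured 1 was the highest and young injured 3 the lowest of the 6 libraries, and the log2 fold changes were -0.02 ± 0.27 and 0.11 ± 0.32. Lrp5 had 145, 177 and 208 CPM in young injured valves, against 168, 151 and 242 CPM in young sham valves, and its log2 fold change was -0.08 ± 0.22 (SE, adjusted p = 0.959). Lrp6 had 124, 112 and 115 CPM in young injured valves, against 107, 123 and 104 CPM in young sham valves, with a log2 fold change of 0.08 ± 0.12 (SE, adjusted p = 0.919). Both coreceptors overlapped between the groups, Lrp6 through young sham 2 alone.

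Among the antagonists, Dkk3 (ENSMUSG00000030772, chromosome 7, 112116019 to 112159057) was the only member whose young injured libraries all lay below the sham libraries, with 1332, 1282 and 925 CPM in young injured valves, against 1471, 1449 and 1421 CPM in young sham valves. Young injured 3 was the low library, the nearest libraries of the groups stood at 1332 and 1421 CPM, and the log2 fold change was -0.29 ± 0.18 (SE, adjusted p = 0.678). This was 1 of 35 members (2.86%), beside 5.07% of all genes tested. Sfrp4 (ENSMUSG00000021319, chromosome 13, 19623175 to 19632821), a Frizzled-related protein mutated in a human disorder of cortical bone, had 19.2, 13.9 and 6.73 CPM in young injured valves, against 7.86, 6.66 and 6.03 CPM in young sham valves. Young injured 1 and 2 were high and young injured 3 lay within the sham range, so the groups overlapped, with a log2 fold change of 0.96 ± 0.32 (SE, adjusted p = 0.331). Sfrp5 (ENSMUSG00000018822, chromosome 19, 42197971 to 42202252), known from mouse adipose tissue and described here because of its values, had 0.918, 4.23 and 16.6 CPM in young injured valves, against 13.3, 15.2 and 26.5 CPM in young sham valves. Again young injured 3 lay within the sham range while the other injured libraries were below it, and the log2 fold change was -1.34 ± 0.72 (SE, adjusted p = 0.624). Young injured 3 also had the highest summed cardiac muscle level of its group, 37288 CPM. With the cardiac muscle score as a covariate in edgeR, no member was called after injury in young valves. The part of this level in the values of young injured 3 alone was not tested. Without young injured 3, Sfrp4 was called as higher, with a log2 fold change of 1.27 and an adjusted p of 0.0412, and Sfrp5 as lower, with -2.83 and 0.0526. In that fit 0.714% of the 19200 genes tested were called as higher and 1.61% as lower.

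The other abundant antagonists gave no call. Wif1 (ENSMUSG00000020218, chromosome 10, 121033960 to 121100650), which binds ligands outside the cell, had 242, 382 and 298 CPM in young injured valves, against 331, 322 and 268 CPM in young sham valves, with a log2 fold change of 0.002 ± 0.22 (SE, adjusted p = 1.00). Sfrp2 had 159.5, 231 and 121 CPM in young injured valves, against 208, 144 and 156 CPM in young sham valves, with a log2 fold change of 0.01 ± 0.24 (SE, adjusted p = 0.996). Frzb had 197, 289 and 260.2 CPM in young injured valves, against 184, 197 and 211 CPM in young sham valves, with a log2 fold change of 0.33 ± 0.20 (SE, adjusted p = 0.673). In Frzb young injured 2 and 3 were the highest libraries but young injured 1 lay below young sham 3, and in Wif1 and Sfrp2 the groups overlapped widely. Dkk2, an LRP-binding member of the Dkk family, had 3.73, 5.63 and 1.73 CPM in young injured valves, against 2.70, 2.64 and 3.59 CPM in young sham valves, with a log2 fold change of 0.32 ± 0.48 (SE, adjusted p = 0.909). Dkk1, too low to be tested and chosen after its values were seen, had 0 counts in the 3 young injured libraries together, against 21 in the 3 young sham libraries, at least 7.88-fold lower when 3 counts over the group are set for the 0. It likewise had 0 counts in the 2 aging injured libraries, against 11 in the 3 aging sham libraries, at least 2.36-fold lower by the same bound. These bounds cover counting error only. Young sham 1 also had 0 counts of Dkk1, and it and both aging injured libraries were those with counts for the fewest genes.

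Axin2 (ENSMUSG00000000142, chromosome 11, 108920349 to 108950783) had 29.7, 34.3 and 27.8 CPM in young injured valves, against 26.7, 25.3 and 28.3 CPM in young sham valves, with group means of 30.6 ± 3.33 CPM in injured and 26.7 ± 1.52 CPM in sham valves (SD, n = 3 each). Young injured 2 was the highest library and young injured 3 lay just below the highest sham library. The log2 fold change was 0.19 ± 0.14 (SE, adjusted p = 0.745). In aging valves Axin2 had 25.3 and 24.7 CPM in aging injured valves, against 29.3, 24.0 and 31.2 CPM in aging sham valves. The injured libraries lay within the sham range, and the log2 fold change was -0.17 ± 0.16 (SE, adjusted p = 0.830). Averaged over age, the log2 fold change of Axin2 was 0.01 ± 0.10 (SE, adjusted p = 0.987). The members not described singly after injury were Wnt1, Wnt2, Wnt2b, Wnt5b, Wnt6, Wnt10a, Fzd3, Fzd6, Fzd8, Fzd9, Fzd10 and Sfrp1. Apart from Wnt10a, their log2 fold changes ran from -0.81 ± 1.75 for Wnt1 to 1.24 ± 0.88 for Wnt2 in young valves, and from -1.23 ± 0.79 for Wnt2b to 0.92 ± 0.59 for Wnt6 in aging valves.

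**Figure D2:**
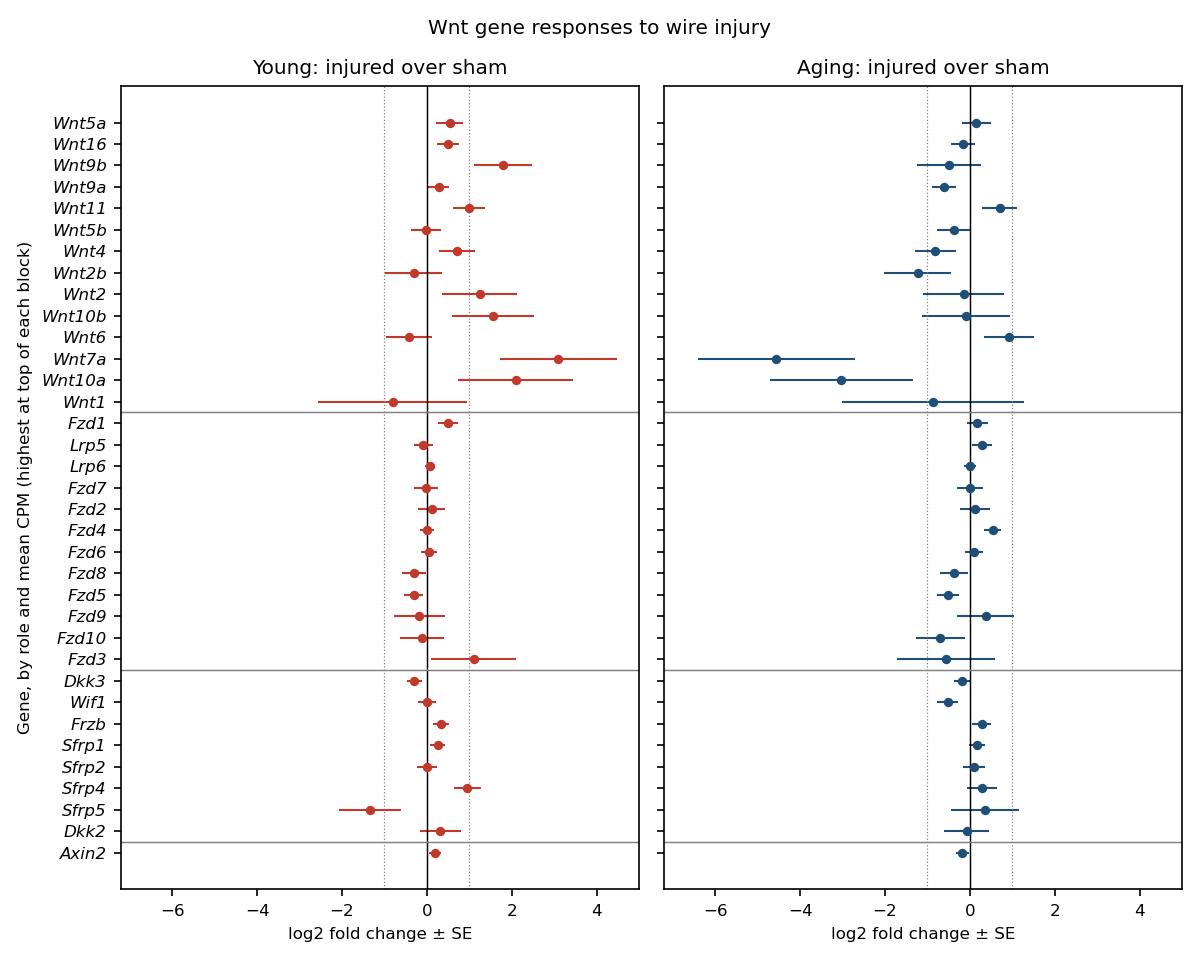
Log2 fold change (injured over sham, bars ± SE, edgeR) of the 35 tested members in young (left) and aging (right) valves, by role; dotted lines mark a 2-fold change. No member was called at either age, and the widest bars belong to ligands of low count such as Wnt7a, Wnt10a and Wnt1.

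After injury in aging valves no member was called either, and by edgeR 0% of the genes tested were called. At an unadjusted p under 0.05 the count was 2 of 35 members, Fzd4 and Wnt7a, beside 8.83% of all genes tested, and DESeq2, which called 1.7% of all genes tested (0.372% as higher and 1.33% as lower), and limma-voom called 0 members. Fzd4, which in mice serves norrin signalling in retinal vessels and is described because of its values, had 56.9 and 61.5 CPM in aging injured valves, against 39.3, 49.8 and 33.5 CPM in aging sham valves. Both injured libraries lay above all sham libraries, with a log2 fold change of 0.53 ± 0.19 (SE, adjusted p = 0.457). In young valves the corresponding log2 fold change of Fzd4 was 0.005 ± 0.17. Wnt6 was the other member whose injured libraries all lay above the sham libraries, making 2 of 35 (5.71%), beside 11.1% of all genes tested. In the other direction the groups did not overlap for Fzd5, Wnt7a, Wnt9a and Wnt10a, which is 4 of 35 (11.4%), beside 16.7%. No member was separated in the same direction at both ages, beside 2.41% of all genes tested upward and 0.966% downward.

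Of the named ligands, Wnt9a had 10.9 and 17.2 CPM in aging injured valves, against 19.2, 26.1 and 19.0 CPM in aging sham valves, without overlap and with a log2 fold change of -0.61 ± 0.28 (SE, adjusted p = 0.576). Wnt16 had 43.3 and 33.0 CPM in aging injured valves, against 34.0, 47.5 and 47.0 CPM in aging sham valves, and Wnt4 had 4.55 and 3.13 CPM in aging injured valves, against 3.81, 5.58 and 10.9 CPM in aging sham valves. Both overlapped between the groups, with log2 fold changes of -0.17 ± 0.28 and -0.81 ± 0.48. Wnt5a had 76.5 and 79.6 CPM in aging injured valves, against 54.7, 72.0 and 83.3 CPM in aging sham valves, with a log2 fold change of 0.16 ± 0.34 (SE, adjusted p = 0.952). Wnt11 had 10.9 and 26.5 CPM in aging injured valves, against 8.53, 11.8 and 14.1 CPM in aging sham valves, where aging injured 2 alone was high. Its log2 fold change was 0.70 ± 0.41 (SE, adjusted p = 0.668). Wnt9b had 30.2 and 12.3 CPM in aging injured valves, against 14.6, 29.5 and 45.4 CPM in aging sham valves, which overlapped, with a log2 fold change of -0.49 ± 0.76 (SE, adjusted p = 0.930). Over the 14 ligands tested the median log2 fold change was -0.44 and 3 were above 0, against a median of -0.01 and a share above 0 of 48.6% over all genes tested. The median depended on single libraries, being -1.05 without aging injured 1, -0.26 without aging injured 2, -0.11 without aging sham 2 and -0.23 without aging sham 3.

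Receptors and antagonists had medians near 0 in aging valves, 0.05 over the 12 receptors and 0.13 over the 8 antagonists tested. Fzd1 had 229 and 353 CPM in aging injured valves, against 243, 243 and 286 CPM in aging sham valves, Fzd7 had 89.4 and 141 CPM in aging injured valves, against 104, 123 and 118 CPM in aging sham valves and Fzd2 had 63.2 and 115 CPM in aging injured valves, against 74.9, 89.4 and 81.6 CPM in aging sham valves. In all these receptors aging injured 2 was high and aging injured 1 low, and their log2 fold changes were 0.18 ± 0.25, 0.003 ± 0.31 and 0.12 ± 0.35. Without aging injured 2 the receptor median was -0.31. Lrp5 had 176 and 233 CPM in aging injured valves, against 147, 150.2 and 206 CPM in aging sham valves, and Lrp6 had 119 and 105 CPM in aging injured valves, against 116, 122 and 99.7 CPM in aging sham valves, with log2 fold changes of 0.29 ± 0.24 and -0.002 ± 0.14. Wif1 had 129 and 159 CPM in aging injured valves, against 217, 149 and 252 CPM in aging sham valves. Aging injured 2 lay above the lowest sham library, and the log2 fold change was -0.52 ± 0.25 (SE, adjusted p = 0.587). Dkk3 had 1087 and 1167 CPM in aging injured valves, against 1335, 1038 and 1444 CPM in aging sham valves, which overlapped, with a log2 fold change of -0.18 ± 0.20. Frzb had 190.1 and 221 CPM in aging injured valves, against 176, 123 and 208 CPM in aging sham valves, Sfrp2 had 115 and 155 CPM in aging injured valves, against 124, 109 and 147 CPM in aging sham valves and Dkk2 had 9.84 and 4.74 CPM in aging injured valves, against 4.06, 7.56 and 11.4 CPM in aging sham valves. Their groups overlapped, with log2 fold changes of 0.28 ± 0.22, 0.09 ± 0.27 and -0.07 ± 0.53. Mesothelial markers, 8 of 8 below 0, summed to 77.2 to 88.1 CPM in aging injured and 124 to 231 CPM in aging sham libraries, and macrophage markers, 9 of 10 above 0, to 1071 to 1099.5 CPM in injured and 700.5 to 982 CPM in sham libraries. Schwann cell markers, 5 of 7 below 0, and smooth muscle markers, 7 of 10 below 0, were also lower in both injured libraries than in any sham library. Adipocyte markers, 8 of 8 above 0 with a median of 1.75 on the log2 scale and 3 at an unadjusted p under 0.05, summed to 329 to 862 CPM in aging injured and 192 to 293 CPM in aging sham libraries, without overlap. The part of these in the member values was not tested.

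Averaged over both ages, edgeR called no member, beside 0.594% of the genes tested (0.434% higher and 0.16% lower), and 3 of 35 members had an unadjusted p under 0.05, beside 11.5%. DESeq2, which called 2.08% of all genes tested (0.981% as higher and 1.09% as lower), and limma-voom called 0 members. The 3 were Wnt11, with a log2 fold change of 0.85 ± 0.28 (SE, adjusted p = 0.256), Sfrp4, with 0.62 ± 0.24 (SE, adjusted p = 0.338), and Fzd5, named for its value, with -0.41 ± 0.17 (SE, adjusted p = 0.396). By DESeq2 the adjusted p of Wnt11 was 0.088, which passed on p but fell short of 2-fold. Wnt11 was called without aging injured 1, with a log2 fold change of 1.09 and an adjusted p of 0.0811, in a fit that called 0.56% of the 20700 genes tested as higher and 0.812% as lower. Without aging injured 2 its log2 fold change was 0.46 (adjusted p = 0.470). Adipocyte markers were above 0 in 8 of 8 for injury averaged over age, with a median of 1.26, macrophage markers in 10 of 10, with a median of 0.37, and Schwann cell markers in 0 of 7, with a median of -0.35. Interstitial and fibroblast markers were above 0 in 9 of 12, with a median of 0.24 and 4 at an unadjusted p under 0.05, all higher. Their part in these values was not tested.

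Whether the response to injury differed between ages was tested by the interaction, the log2 fold change in aging minus that in young valves. By edgeR 0 members were called, beside 0% of the genes tested. At an unadjusted p under 0.05 the count was 5 of 35, all ligands and all negative, beside 7.86% of all genes tested (5.8% negative and 2.06% positive), and limma-voom called 0 members. DESeq2 called 1, Wnt7a, as negative, beside 0.775% of all genes tested called as negative and 0.124% as positive. The 5 were Wnt4, Wnt7a, Wnt9a, Wnt9b and Wnt10a, of which Wnt9b and Wnt10a are described for their values. For Wnt4 the interaction was -1.52 ± 0.64 (SE, adjusted p = 0.607), for Wnt9a -0.89 ± 0.38 (SE, adjusted p = 0.608) and for Wnt9b -2.29 ± 1.03 (SE, adjusted p = 0.632), which was -0.89 without young injured 2 and -3.07 without aging injured 1. Over the 14 ligands tested 13 were below 0 and the median was -0.90, against -0.05 over all genes tested, of which 45.7% were above 0. The ligands averaging 2 CPM or more were all below 0 (9 of 9), with a median of -0.89. Leaving out aging injured 1 gave a ligand median of -1.53, and leaving out aging sham 2 gave -0.64. The receptors had a median interaction of -0.03 and the antagonists -0.07. Mesothelial markers were below 0 in 8 of 8, with a median of -1.81 and 4 at an unadjusted p under 0.05, and adipocyte markers above 0 in 8 of 8, with a median of 1.16. Cardiac muscle markers had a median of 0.68, melanocyte markers of -0.77 and chondrocyte-like markers of -0.64. Interstitial and fibroblast markers were below 0 in 8 of 12, with a median of -0.14 and 3 at an unadjusted p under 0.05, all negative. With the cardiac muscle score as a covariate in edgeR, 1 of 35 members had an unadjusted p under 0.05 for the interaction, against 5 without it. The smallest adjusted p of any member was 0.607, against 0.501. The score may itself differ with injury and age, so no conclusion is drawn from that fit. The part of the other markers in the ligand values was not tested.

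The least abundant of these ligands rested on few counts. Wnt7a, known for patterning the mouse limb, had 0.189, 3.21 and 2.61 CPM in young injured valves, against 0, 0.123 and 0.591 CPM in young sham valves, which overlapped. That amounted to 203 counts in the injured group and 19 in the sham group, a scaled ratio of 9.49 (95% exact interval 5.92 to 16.1, counting error only). In aging valves it had 0 and 0.0877 CPM in aging injured valves, against 0.359, 1.02 and 2.16 CPM in aging sham valves, which is 3 counts in the injured group and 107 in the sham group, a scaled ratio of 0.0436 (0.00884 to 0.131). The groups did not overlap. Wnt10a, which acts in tooth and hair development, had 4 counts in aging injured and 52 in aging sham libraries, a scaled ratio of 0.119 (0.0314 to 0.325). The edgeR adjusted p of the interaction was 0.501 for Wnt7a and 0.607 for Wnt10a, and DESeq2 called Wnt7a, with a log2 interaction of -7.77 and an adjusted p of 0.0424. The libraries with 0 to 3 counts of Wnt7a, young sham 1 and both aging injured ones, were also those with counts for the fewest genes. With the number of genes with a count as a covariate, the smallest edgeR adjusted p of any member for the interaction was 0.944. That number was 18642 and 19015 in aging injured and 22337 to 22533 in aging sham libraries, without overlap. The covariate cannot be told apart from injury in aging valves, so no conclusion is drawn from this fit.

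**Figure D3:**
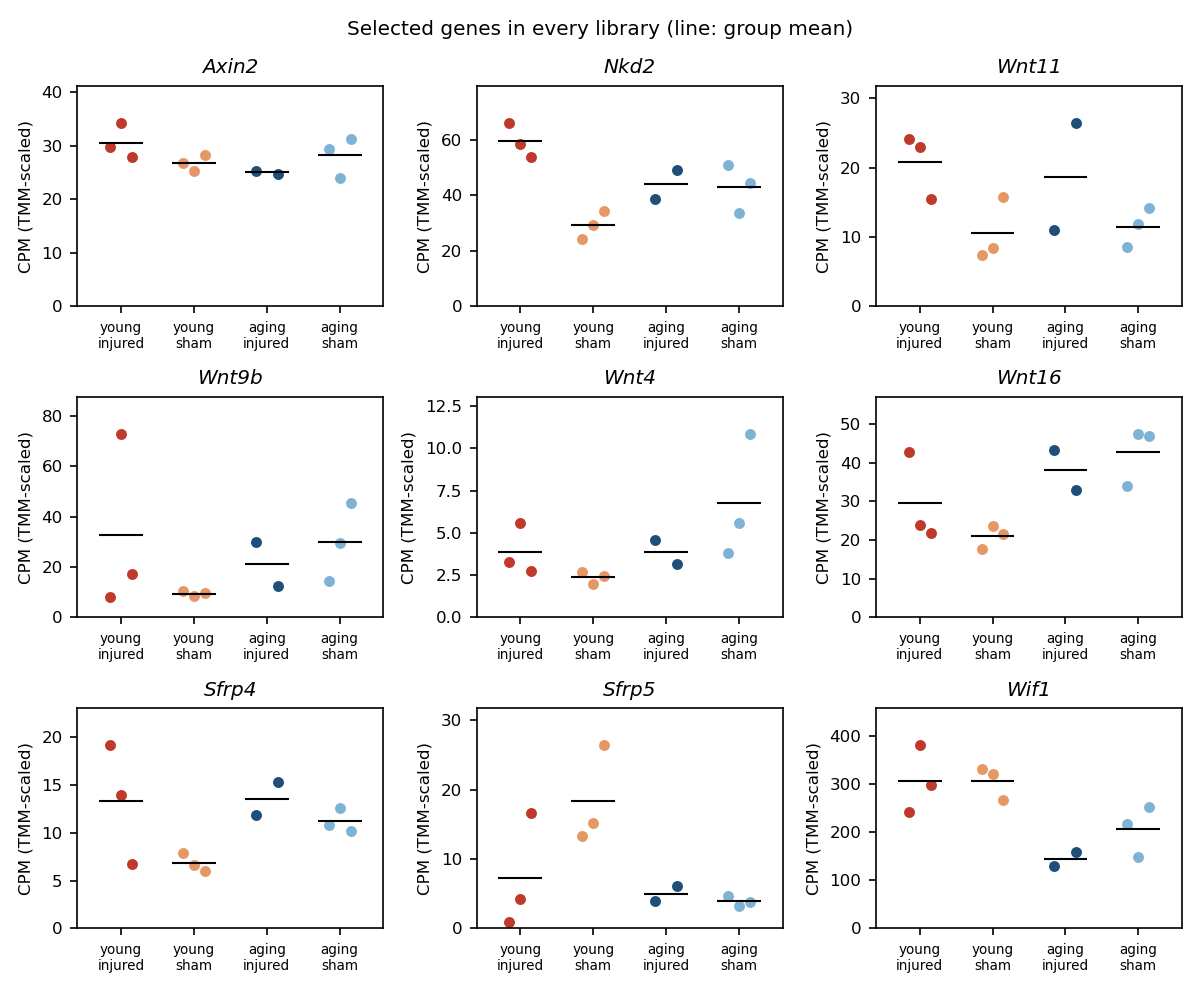
TMM-scaled CPM of 9 genes in every library, in the order young injured, young sham, aging injured and aging sham; points are libraries and lines group means. Nkd2 is separated between young injured (53.7 to 66.1 CPM) and young sham valves (24.3 to 34.4 CPM), Wnt16 between aging sham (34.0 to 47.5 CPM) and young sham valves (17.5 to 23.6 CPM), while Axin2 overlaps in both injury comparisons and between the sham groups.

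Between the ages in sham valves, 11 of 35 members were separated, against 3 after injury in young and 6 in aging valves. Over all genes tested, the shares were 11.8% upward and 9.08% downward with age in sham valves. After injury they were 9.54% and 5.07% in young valves, and 11.1% and 16.7% in aging valves, where the injured group had 2 libraries. By edgeR no member was called for age in sham valves, beside 0.0258% of the genes tested (0.0207% higher and 0.00516% lower). An unadjusted p under 0.05 was found for 7 of 35 members, beside 9.19%. DESeq2 called Wnt16 and Wnt4 as higher and Sfrp5 as lower in aging sham valves, with adjusted p of 0.0262, 0.0647 and 0.0723, beside 0.568% of all genes tested called by DESeq2 as higher and 0.465% as lower, and limma-voom called 0 members. Wnt16 (ENSMUSG00000029671, chromosome 6, 22288227 to 22298522) had 34.0, 47.5 and 47.0 CPM in aging sham valves, against 17.5, 23.6 and 21.6 CPM in young sham valves. The groups stood well apart, and the log2 fold change was 1.03 ± 0.26 (SE, adjusted p = 0.296). Wnt4 had 3.81, 5.58 and 10.9 CPM in aging sham valves, against 2.70, 1.99 and 2.44 CPM in young sham valves. Aging sham 3 was the highest library and the groups did not overlap, with a log2 fold change of 1.502 ± 0.43 (SE, adjusted p = 0.377). Wnt9b had 14.6, 29.5 and 45.4 CPM in aging sham valves, against 10.3, 8.31 and 9.74 CPM in young sham valves, without overlap and with a log2 fold change of 1.66 ± 0.69 (SE, adjusted p = 0.519). Wnt5a and Wnt9a overlapped between the ages, with log2 fold changes of 0.19 ± 0.31 and 0.23 ± 0.25.

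Every aging sham library lay above every young sham library for Wnt2, Wnt4, Wnt9b, Wnt10a, Wnt16, Fzd1, Fzd7, Sfrp4 and Dkk2, which is 9 of 35 members (25.7%), beside 11.8% of all genes tested. For Wnt10a the separation rested on few counts, 13, 16 and 23 in aging sham and 0, 11 and 0 in young sham libraries. Its nearest libraries stood at 0.359 and 0.337 CPM, and Wnt2 had 1 count in young sham 1. Wif1 and Sfrp5 lay apart in the other direction, which is 2 of 35 (5.71%), beside 9.08%. Fzd1 had 243, 243 and 286 CPM in aging sham valves, against 227, 193 and 157 CPM in young sham valves, and Fzd7 had 104, 123 and 118 CPM in aging sham valves, against 103, 98.0 and 95.9 CPM in young sham valves. The separation was narrow in Fzd7, and the log2 fold changes were 0.42 ± 0.22 and 0.22 ± 0.27. Of the other receptors named, Fzd2, Lrp5 and Lrp6 had log2 fold changes of 0.21 ± 0.32, -0.15 ± 0.22 and 0.01 ± 0.12. Axin2 overlapped between the ages, with a log2 fold change of 0.07 ± 0.14 (SE, adjusted p = 0.926). The ligands had a median of 0.84 on the log2 scale, with 11 of 14 above 0, against 0.02 and 52.3% over all genes tested, and the median was 0.56 without aging sham 2. The 12 receptors had a median of 0.02 and the 8 antagonists of -0.20.

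Among the antagonists, differences with age had both signs. Wif1 had 217, 149 and 252 CPM in aging sham valves, against 331, 322 and 268 CPM in young sham valves, with the nearest libraries at 252 and 268 CPM and a log2 fold change of -0.57 ± 0.22 (SE, adjusted p = 0.490). Sfrp5 had 4.70, 3.27 and 3.79 CPM in aging sham valves, against 13.3, 15.2 and 26.5 CPM in young sham valves, a wide separation, with a log2 fold change of -2.22 ± 0.74 (SE, adjusted p = 0.440). Sfrp4 had 10.8, 12.6 and 10.2 CPM in aging sham valves, against 7.86, 6.66 and 6.03 CPM in young sham valves, with a log2 fold change of 0.71 ± 0.32 (SE, adjusted p = 0.538). Dkk2 had 4.06, 7.56 and 11.4 CPM in aging sham valves, against 2.70, 2.64 and 3.59 CPM in young sham valves, again without overlap, with a log2 fold change of 1.37 ± 0.49 (SE, adjusted p = 0.459). The remaining named antagonists, Dkk3, Sfrp2 and Frzb, had log2 fold changes of -0.19 ± 0.18, -0.42 ± 0.24 and -0.22 ± 0.20. Mesothelial markers were above 0 in 8 of 8, with a median of 1.85 and 7 at an unadjusted p under 0.05. They summed to 124 to 231 CPM in aging sham and 20.3 to 71.4 CPM in young sham libraries. Macrophage markers were above 0 in 10 of 10, with a median of 0.41 and 1 at an unadjusted p under 0.05. Chondrocyte-like markers, 5 of 6 tested below 0, summed to 748 to 1841 CPM in aging sham and 2444 to 2628 CPM in young sham libraries. Smooth muscle markers, 7 of 10 above 0, summed to 19438 to 23389.5 CPM in aging sham and 7689.9 to 17798 CPM in young sham libraries. Cardiac muscle markers, 12 of 12 below 0 with a median of -1.26 and 5 at an unadjusted p under 0.05, summed to 7493 to 21553 CPM in aging sham and 20109.6 to 36030.2 CPM in young sham libraries. With the cardiac muscle score as a covariate, 3 of 35 members had an unadjusted p under 0.05 for age in sham valves, against 7 without it, and the smallest adjusted p of any member was 0.824, against 0.296. That score was 0.28 to 1.44 in young sham and -1.61 to 0.62 in aging sham libraries. It went largely with age, so no conclusion is drawn from this fit either way. With the number of genes with a count as a covariate, 4 members had an unadjusted p under 0.05 and the smallest adjusted p was 0.792. That number was 22337 to 22533 in aging sham and 18641 to 22194 in young sham libraries, without overlap. It cannot be told apart from age, so no conclusion is drawn from that fit. The part of the other markers in the member values was not tested.

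Between the injured groups, aging against young, edgeR called no member, beside 0.062% of the genes tested (0.0465% higher and 0.0155% lower), and 4 of 35 members had an unadjusted p under 0.05, beside 12.5%. DESeq2 called Wif1 and Wnt7a as lower in aging injured valves, with adjusted p of 0.00452 and 0.0334, beside 2.24% of all genes tested called by DESeq2 as lower and 0.857% as higher, and limma-voom called 0 members. Wif1 had 129 and 159 CPM in aging injured valves, against 242, 382 and 298 CPM in young injured valves. The groups did not overlap, and the edgeR log2 fold change was -1.10 ± 0.25 (SE, adjusted p = 0.151). Aging injured libraries lay apart from young injured libraries upward for Wnt6 and Fzd4, which is 2 of 35 members (5.71%), beside 9.89% of all genes tested, and downward for Axin2, Fzd3, Wif1, Wnt7a and Wnt10a, which is 5 of 35 (14.3%), beside 14.5%. Axin2 had 25.3 and 24.7 CPM in aging injured valves, against 29.7, 34.3 and 27.8 CPM in young injured valves, with a log2 fold change of -0.29 ± 0.16 (SE, adjusted p = 0.479). The other members with an unadjusted p under 0.05 were Fzd4, with a log2 fold change of 0.44 ± 0.19 (SE, adjusted p = 0.389), Wnt9a, with -0.66 ± 0.28 (SE, adjusted p = 0.377), and Wnt7a, which rested on 3 counts in aging injured and 203 in young injured libraries. The ligands had a median of -0.29, with 3 of 14 above 0, against -0.04 and 46.4% over all genes tested. Interstitial and fibroblast markers summed to 18810.4 to 22572 CPM in aging injured and 24637 to 29898 CPM in young injured libraries, and smooth muscle markers to 16203 to 19261 CPM in aging injured and 6185 to 14032 CPM in young injured libraries. Adipocyte markers were above 0 in 8 of 8, with a median of 1.13, chondrocyte-like markers in 1 of 6 tested, with a median of -1.01, and cardiac muscle markers in 1 of 12, with a median of -0.50. With the cardiac muscle score as a covariate in edgeR, 4 of 35 members had an unadjusted p under 0.05, the same count as without it. The smallest adjusted p of any member was 0.139, against 0.151. The score may itself differ with age, so no conclusion is drawn from that fit. The part of the other markers in these values was not tested. The comparisons of age and of injury share groups, so their values are not independent of one another.

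Outside the members, 88 further genes of the pathway were listed by role, and 84 of them were tested. After injury in young valves 1 was called, Nkd2, beside the 0.418% of all genes tested, and 8 were higher and 6 lower at an unadjusted p under 0.05 (9.52% and 7.14%), beside 6.25% and 2.94% of all genes tested. In aging valves edgeR called 0 of the 84, with 2 higher and 5 lower at an unadjusted p under 0.05 (2.38% and 5.95%), beside 2.75% and 6.08% of all genes tested. Nkd2 encodes a Dishevelled-binding protein that in mammals is described as an inhibitor of the pathway, and it stood in the list of target genes. It had 66.1, 58.5 and 53.7 CPM in young injured valves, against 24.3, 29.2 and 34.4 CPM in young sham valves. All injured libraries lay far above all sham libraries, and Nkd2 rose 2.03-fold, a log2 fold change of 1.02 ± 0.19 (SE, adjusted p = 0.0542). In aging valves Nkd2 had 38.7 and 49.0 CPM in aging injured valves, against 50.9, 33.7 and 44.4 CPM in aging sham valves, which overlapped, with a log2 fold change of 0.03 ± 0.20 (SE, adjusted p = 0.987). The interaction for Nkd2 was -0.99 ± 0.28 (SE, adjusted p = 0.453), so a difference in response between ages was not called. The call of Nkd2 in young valves was lost when only the compared groups were fitted (adjusted p = 0.170), with the number of genes with a count as covariate (0.202), and without the 3 libraries with the fewest genes (0.145). It was also lost without young injured 1 (0.121), young injured 2 (0.202), young sham 1 (0.168), young sham 2 (0.221) or aging sham 3 (0.104), while its log2 fold change in these fits was 0.90 to 1.02.

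Of the 20 listed target genes 19 were tested, and in young valves 6 were higher and 3 lower at an unadjusted p under 0.05 (31.6% and 15.8%), beside the 6.25% and 2.94% of all genes tested, and their median was 0.22 (log2), against 0.01 over all genes tested. In aging valves 1 was higher and none lower by that threshold, beside 2.75% and 6.08% of all genes tested, and the median was -0.001. Cd44, the hyaluronan receptor, had 149, 215 and 159.8 CPM in young injured valves, against 82.1, 74.3 and 107 CPM in young sham valves. The injured libraries lay above the sham libraries, and the log2 fold change of 0.99 ± 0.18 (SE, adjusted p = 0.0489) passed on p but fell short of 2-fold. In aging valves Cd44 had 173 and 153 CPM in aging injured valves, against 104, 109.9 and 123 CPM in aging sham valves, again without overlap, with a log2 fold change of 0.54 ± 0.19 (SE, adjusted p = 0.456). Bambi, a decoy receptor of the TGF-beta family and named after its values were seen, had 25.1, 28.6 and 28.2 CPM in young injured valves, against 44.3, 45.0 and 36.7 CPM in young sham valves, lower in all injured libraries, with a log2 fold change of -0.62 ± 0.13 (SE, adjusted p = 0.0955) that also stayed under 2-fold. In young valves interstitial and fibroblast markers were above 0 in 9 of 12, with 5 at an unadjusted p under 0.05, all higher. Macrophage markers were above 0 in 10 of 10 and Schwann cell markers below 0 in 7 of 7. The part of these in the target gene values was not tested.

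**Figure D4:**
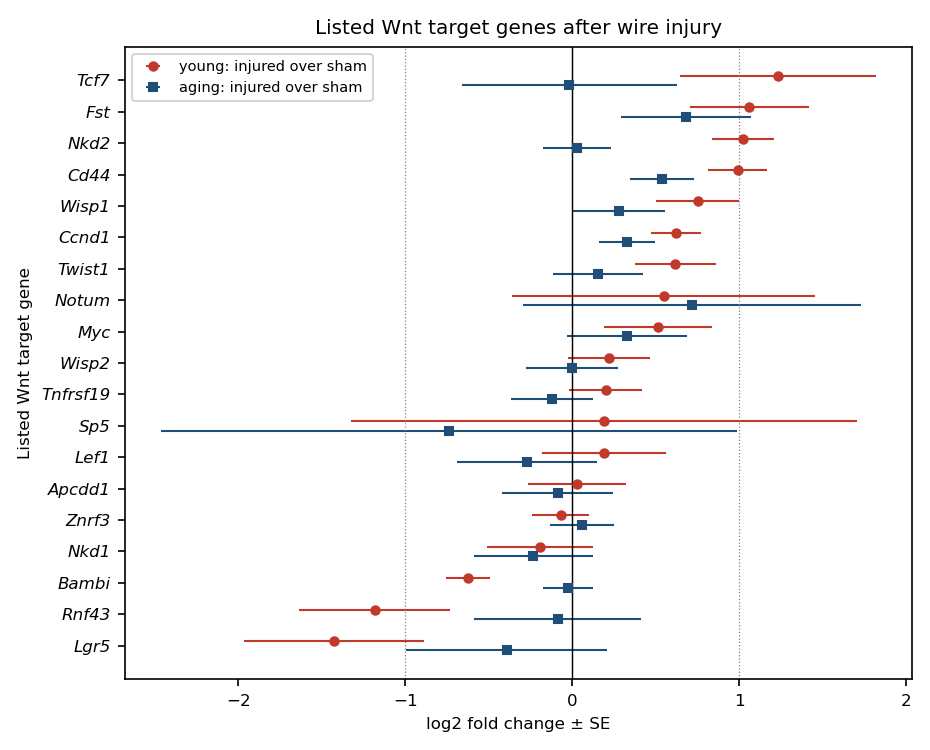
Log2 fold change (injured over sham, bars ± SE, edgeR) of the 19 tested target genes in young (circles) and aging (squares) valves, sorted by the young value; dotted lines mark a 2-fold change. Nkd2 lies at 1.02 in young and 0.03 in aging valves, and Cd44 at 0.99 and 0.54.

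The other lists gave no call at either age, and the genes with the smallest p of each are given by value. Upstream of the receptors, Wls, which carries ligands to the cell surface, had a log2 fold change of 0.42 ± 0.18 in young and -0.03 ± 0.20 in aging valves, and Trabd2b, a membrane protease that cleaves ligands, had -0.18 ± 0.17 and 0.16 ± 0.18. The R-spondin Rspo3, which enhances Wnt signalling, had -0.27 ± 0.25 in young and -1.04 ± 0.29 in aging valves, and its receptor Lgr5 -1.43 ± 0.54 and -0.39 ± 0.60. Over the 7 tested genes of that list the median log2 fold change was -0.27 in young and -0.20 in aging valves. Sost, an LRP-binding inhibitor known from bone, had 227, 136 and 151 CPM in young injured valves, against 546, 437 and 236 CPM in young sham valves. All injured libraries lay below all sham libraries, with a log2 fold change of -1.24 ± 0.31 (SE, adjusted p = 0.162). In aging valves Sost had 391 and 554 CPM in aging injured valves, against 452, 698 and 544 CPM in aging sham valves, which overlapped, with a log2 fold change of -0.26 ± 0.34 (SE, adjusted p = 0.909). Dact2, a Dishevelled-binding protein of the same list, had -0.88 ± 0.44 in young and 0.55 ± 0.48 in aging valves.

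The receptor-like kinase Ptk7 had a log2 fold change of 0.61 ± 0.21 in young and 0.26 ± 0.23 in aging valves, and the adhesion receptor Mcam -0.39 ± 0.15 and -0.36 ± 0.16. In the destruction complex, Gsk3a had -0.11 ± 0.12 in young and 0.36 ± 0.14 in aging valves, and the kinase gene Csnk1a1 -0.005 ± 0.11 and -0.33 ± 0.13. The 18 genes of that list had median log2 fold changes of -0.03 in young and -0.05 in aging valves. Among nuclear factors the corepressor Tle1 had 0.07 ± 0.24 in young and -0.59 ± 0.27 in aging valves, and Tcf7, which binds DNA with beta-catenin, 1.23 ± 0.59 and -0.02 ± 0.64. The 14 nuclear factors had medians of 0.01 and 0.09. Of the planar polarity genes, the cadherin Celsr1 had -0.66 ± 0.27 in young and 0.03 ± 0.30 in aging valves.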

How the data were processed

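RNA was measured in 11 valve libraries. Per the labels' protocols, total RNA was made into libraries with an mRNA kit and sequenced as paired ends. TopHat2 2.1.0 and the mm10 build are named, per the submitters' processing notes. How reads were counted, with what strand setting and annotation, is not stated in those notes or the labels. The authors deposited raw counts for 46983 genes and RPKM values for 13526 genes, and 1 column of each table matched no sample label and was not used. Coordinates are those of the count table (mm10).

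Counts were tested with edgeR 4.0.16 in R 4.3.3 (quasi-likelihood F test). Genes were kept by filterByExpr with a minimum count of 10, which left 19366, and TMM scaling was used in 1 fit of 4 group means without covariates. The common biological coefficient of variation was 0.377. P-values were adjusted by the Benjamini-Hochberg method over all genes tested, and calls needed more than 2-fold at an adjusted p under 0.1, as in the series' own design text. Each SE was derived from the F statistic, as the size of the log2 fold change over the root of F. The labels put 1 mouse in each library, so replicates are mice. DESeq2 1.42.0, limma-voom (limma 3.58.1), other scalings and filters, covariates, a replicate block and leaving out each library were alternatives. The block was tried because titles share replicate numbers. As a check for libraries deposited more than once, counts of the 10 pairs within groups were compared, and chi-square per degree of freedom was 20.9 to 228. The test was checked on simulated data.

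The members, lists and tests were chosen with earlier results of these data known. Per-library values are given for Axin2, Lrp5 and Lrp6, for members with an unadjusted p under 0.01 in any comparison, and for the 3 members of each family with the highest mean RPKM; other pathway genes are named where called or where among the 2 smallest p of their list over the injury comparisons, of which 1 is not reported here. Genes outside this rule are said to be described for their values.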

Additional observations from a re-analysis of the deposited data

How the results depend on the processing

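The count of members called stayed at 0 in 244 of 252 combinations of comparison, direction and alternative. DESeq2 called 2 members up and 1 down for age in sham valves, 2 down for age in injured valves and 1 down for the interaction. Over all genes after injury in young valves DESeq2 called 222 up and 46 down, against 78 and 3 by edgeR. Leaving out 1 library at a time gave 0 to 1 member up and 0 to 1 down for injury in young valves, 0 to 1 up for injury averaged over age and 0 to 1 down for age in injured valves (Fzd3, without aging injured 2, at an adjusted p of 0.0998, beside 0.48% of all genes tested called down). The ligand median then ranged from -1.05 to -0.11 after injury in aging valves and from -1.53 to -0.64 for the interaction, and the receptor median in aging valves from -0.31 to 0.39. Counts of members whose groups do not overlap ranged from 1 to 10 up and 1 to 2 down for injury in young valves. They ranged from 2 to 15 up and 4 to 14 down in aging valves, and from 9 to 13 up and 2 to 7 down for age in sham valves. Fewer libraries make separation easier by construction. The share of all genes tested that separated was not determined with libraries left out, so no conclusion is drawn from these ranges. The averaged log2 fold change of Axin2, 0.01, was -0.038 with the number of genes as covariate and ranged from -0.043 to 0.049 when libraries were left out, negative without young injured 2, young sham 2, aging injured 1 or aging sham 2. Same-numbered libraries had residual correlations of -0.13 to 0.25, and differently numbered libraries of different groups -0.23 to 0.26. Residuals around means of 2 or 3 libraries are constrained, so these correlations cannot decide whether the numbers mark a pairing. With the replicate block 52 genes were called up and 3 down after injury in young valves, 0 members were called, and Nkd2 had an adjusted p of 0.124. Cd44 passed 2-fold with the block (log2 1.00), under scaling by totals without mitochondrial genes (1.04), and without young injured 1 (1.09), young injured 3 (1.05) or young sham 3 (1.16). Leaving out the 3 libraries with the fewest genes was chosen after seeing the data. Where 1 aging injured library was left, the fit assumes that it varies like the other groups. With 2 aging injured libraries and ligands of few counts, depth limits what can be said of Wnt1, Wnt7a and Wnt10a.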
